A study of Mus musculus with 6 samples.

Results

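The cytosolic ribosomal protein genes encode the protein parts of the ribosome that translates nuclear-encoded messages. They were taken as every symbol in the count table made of Rpl or Rps, digits and an optional letter a, l, x or y, together with Rplp0, Rplp1, Rplp2 and Rpsa. The rule finds 83 genes of 46095 in the table, 51 of the large subunit and 32 of the small subunit. RNA sequencing measured them in 6 mouse hearts: 3 wild-type hearts and 3 STAT3cKO hearts, whose cardiomyocytes lack STAT3. STAT3 is a signal-activated transcription factor downstream of IL-6 type cytokines, and the series was made to look for pathways behind heart function in these animals. No age, sex, litter, treatment or Cre line is named for either group. Whether each library is a separate animal is also not said, so p-values may reflect technical spread alone. Hearts carry the numbers of their sample titles (1, 3 and 4 for wild type, 3, 6 and 91 for STAT3cKO), and single values follow that order throughout.

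The ribosome is built from a large and a small subunit. Most of its proteins, though not those of the acidic stalk, are present in about a single copy per particle, so cells make them in balance. Their messages are short, abundant and share a pyrimidine-rich start through which mTORC1 and the RNA-binding protein LARP1 control their translation. The mammalian genome also carries many processed copies of these genes, most of them pseudogenes. In striated muscle one large-subunit protein, RPL3, has a muscle-restricted paralog, RPL3L.

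Total counts per heart ran from 15416877 to 18264052, and the members took 0.730% to 0.935% of them in wild type and 1.02% to 1.24% in STAT3cKO. Stat3 itself was at 85.8 to 99.7 CPM (counts scaled to a common library size with edgeR's TMM factors) in wild type and 52.9 to 63.7 CPM in STAT3cKO (log2 fold change -0.68, edgeR adjusted p = 0.000677). Gene-level counts do not separate cardiomyocytes from other cells, and the source of the Stat3 reads left in STAT3cKO was not tested. Of 10 endothelial markers 7 were lower and 0 higher in STAT3cKO, with a summed level of 1401 to 1594 CPM in wild type and 935 to 1024 in STAT3cKO. Of 10 smooth muscle and pericyte markers 6 were lower (1134 to 1317 against 725 to 852 CPM summed), and of 10 macrophage markers 5 (540 to 693 against 418 to 603 CPM). Red blood cell markers went the other way, with 5 of 6 tested higher (92.5 to 161 against 338 to 692 CPM). These counts carry no length term, and with the length offset described below 6 endothelial, 4 smooth muscle and pericyte and 7 macrophage markers were lower and 0 of the 6 red blood cell markers passed. Of all genes tested, 12.6% were lower and 13.2% higher without that offset, and 7.02% and 10.1% with it. Cardiomyocyte markers were at 63944 to 70996 CPM in wild type and 69875 to 80241 in STAT3cKO, with 3 of 12 higher and 2 lower, fibroblast markers at 2799 to 4148 and 3642 to 4602 CPM, with 1 of 10 higher and 2 lower, and lymphocyte markers at 17.2 to 20.1 and 14.3 to 20.9 CPM, with 4 of 10 tested, 1 higher and 1 lower. The part of these cell types in the results below was not tested, and in whole-heart RNA fewer cells of a type and less RNA per cell cannot be told apart.

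Reads of ribosomal protein genes were more abundant in the 3 STAT3cKO hearts than in any wild-type heart. Summed over the large subunit, the level was 4904, 4470 and 4019 CPM across the wild-type hearts against 6653, 6340 and 6840 CPM across those of the knockout. The small subunit rose beside it, from 3506 ± 365 to 5147 ± 231 CPM (SD, n = 3 each). The groups did not overlap for either subunit, and all members together stood 1.48 times higher in STAT3cKO (7970 ± 807 against 11758 ± 481 CPM, SD, n = 3 each). The ratio of small-subunit to large-subunit reads was 0.785 ± 0.00826 for wild type against 0.778 ± 0.00935 for STAT3cKO (SD, n = 3 each), closer than the hearts of 1 group were to each other. No p-value is given for these sums, because the members were chosen as a set with earlier results known.

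**Figure D1:**
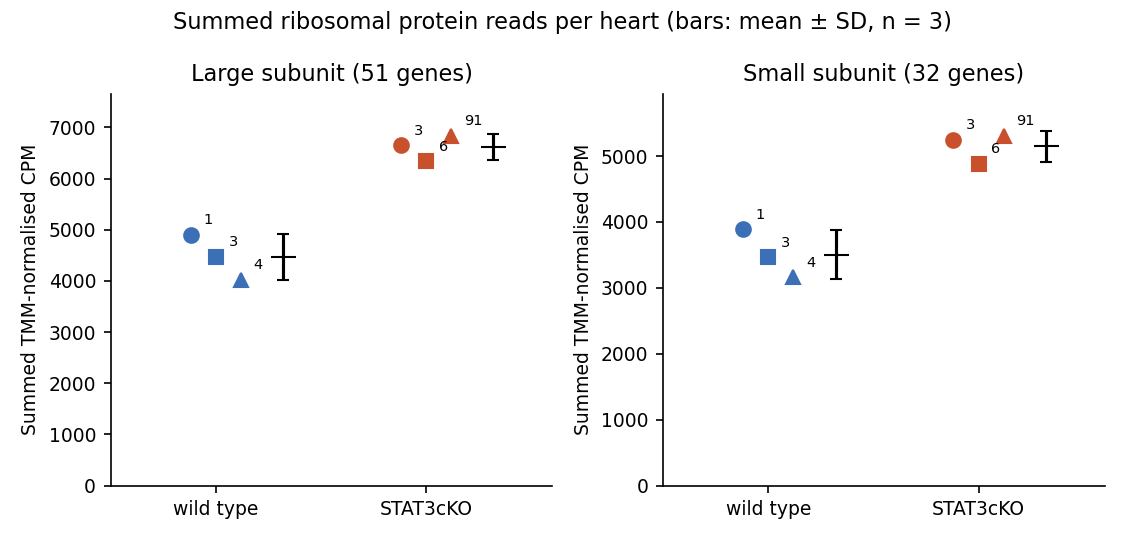
Summed TMM-normalised CPM of the 51 large-subunit genes (left) and the 32 small-subunit genes (right) in each heart, with the replicate number beside each point and the mean ± SD (n = 3) as a bar. The 3 STAT3cKO hearts lie between 6340 and 6840 CPM for the large subunit, above the wild-type hearts, which lie between 4019 and 4904.

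Gene by gene, 78 members had enough reads to test. In edgeR's quasi-likelihood test with genotype as the only term, 54 of the 78 were higher in STAT3cKO hearts, 0 were lower and 24 did not pass at an adjusted p under 0.05. Over all 14484 genes tested, 13.2% were called higher and 12.6% lower. Members are short, and genes of similar length were also called higher more often. Of 2559 other coding genes between the members' 10th and 90th percentile of transcript length, 698 (27.3%) were higher and 73 lower. Scaled by library size alone, 1109 genes in place of 1918 were higher and 2714 in place of 1820 lower, and 44 members were higher. At an unadjusted p under 0.05 the lower calls were 0 as well, given without the share of all genes there. Lower calls were also 0 with DESeq2 (1739 over all genes) and with limma-voom (1836), which carry no length term either. The median log2 fold change (STAT3cKO minus wild type, as everywhere below) was 0.56 over the members and -0.0016 over all genes. The groups did not overlap for 69 members, all higher in STAT3cKO, against 21.5% of all genes that did not overlap in that direction. Of the 2559 other coding genes of similar length, 1014 did so. Both subunits took part, with 32 of 48 large-subunit genes higher (median 0.54) and 22 of 30 small-subunit genes (median 0.64).

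The most abundant members per kilobase of transcript show the size of this difference. Rplp1, which with Rplp2 forms the acidic stalk that recruits elongation factors, was at 422, 289 and 229 CPM across the wild-type hearts against 600, 573 and 716 CPM across the knockout hearts. The groups did not overlap (log2 fold change 1.005 ± 0.21 SE, edgeR adjusted p = 0.0121), although leaving out STAT3cKO replicate 91 ended the call (edgeR adjusted p = 0.0574). Rplp0, the base of the same stalk, went from 600, 537 and 530 CPM to 770, 731 and 779 CPM (0.45 ± 0.096 SE, edgeR adjusted p = 0.00536). Rplp2 did not pass, and stood at 187, 131 and 125 CPM across the wild-type hearts against 175, 136 and 165 CPM across the knockout hearts, with overlapping groups (0.10, edgeR adjusted p = 0.67). Among small-subunit genes, Rps15 rose from 304 ± 51.7 to 459 ± 14.5 CPM (SD, n = 3 each; log2 fold change 0.60), Rps14 from 205 ± 22.3 to 322 ± 22.8 CPM (0.65) and Rps4x, the X-linked S4 protein, from 266 ± 19.9 to 406 ± 31.1 CPM (0.61). In the large subunit, Rpl41, the smallest ribosomal protein, rose by 0.82 and Rpl4 by 0.45, and Rps21 of the small subunit rose by 1.09, a call that ended on leaving out wild type replicate 3 (edgeR adjusted p = 0.0505), STAT3cKO replicate 3 (0.0525) or STAT3cKO replicate 91 (0.069). Of the 10 members with the highest CPM per kilobase, 9 were higher. The exception was Rps2, a small-subunit protein, at 392, 358 and 361 CPM across the wild-type hearts against 398, 341 and 320 CPM across the knockout hearts (-0.068, edgeR adjusted p = 0.659).

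Transcript length has to be set beside these counts, since members are short, with a median of 925.5 nt for the longest coding transcript against 3068.5 nt over all genes tested. Short transcripts as a class had higher counts in STAT3cKO hearts. Among coding genes outside the family, the median log2 fold change was 0.57 below 600 nt, 0.49 from 600 to 800 nt, 0.41 from 800 to 1000 nt, 0.29 from 1000 to 1300 nt, 0.16 from 1300 to 2000 nt and -0.11 above. In the same classes the members' medians were 0.66, 0.58, 0.55, 0.52, 0.46 and 0.67. The family's median thus stood above that of other genes in each class, by least in the shortest and by most in the longest, a gap that was not tested. The longest class held 6 members against 9487 other genes, and some of those members are short when their principal transcript is used. Across genes, the rank correlation of log2 fold change with length (Spearman) was -0.439 for the 12326 other coding genes and -0.137 for the 78 members, a description over genes that share the same 6 libraries. With the length offset introduced below the members' rho was 0.478 (0.242 with the shortest principal transcript as length).

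The length trend separates the hearts as the genotypes do. Fitted to coding genes that are not members, it put a transcript of 500 nt at -0.13, -0.30 and -0.47 log2 units across the wild-type hearts, relative to the mean over all hearts, against 0.33, 0.26 and 0.31 across the knockout hearts. Within wild type, replicate 4 stood furthest from replicate 1, and the same order is seen in the summed ribosomal reads, which were lowest in replicate 4 and highest in replicate 1. Within STAT3cKO the orders differed. The trend was highest in replicate 3, and the summed reads were highest in replicate 91 (12152 CPM, against 11899 in replicate 3 and 11223 in replicate 6). An effect of genotype on short messages and a difference in RNA or library preparation between the groups cannot be told apart in this design. The trend was therefore entered as an offset, heart by heart, so that each gene was compared with what genes of its length did in the same heart.

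With the length offset, 21 of 78 members were higher, 1 was lower and 56 did not pass (edgeR, adjusted p under 0.05), where 10.1% of all genes were called higher and 7.02% lower. At an unadjusted p under 0.05, 34 members were higher and 2 lower, counts given without the share of all genes at that threshold. All 21 had also passed without the offset. The members' median log2 fold change fell from 0.56 to 0.22, against 0.025 over all genes and 0.036 over 2559 other coding genes between the members' 10th and 90th percentile of length, of which 8.64% were called higher. The estimate was above 0 for 58 members and below 0 for 20. After the adjustment the groups did not overlap for 37 members that were higher and 5 that were lower in STAT3cKO, where 20.5% and 16.1% of all genes did so. By length, 2 of 16 members under 600 nt and 5 of 6 of at least 2000 nt were called higher, where 7.69% and 10.9% of other coding genes were. The class of at least 2000 nt rests in part on long annotated isoforms. In it, Rps15a and Rpl18 have shortest principal transcripts of 640 and 679 nt, while those of Rps20 and Rpl5 have 3706 and 2045 nt. Large-subunit genes were called in 11 of 48 cases (median 0.17) and small-subunit genes in 10 of 30 (median 0.29).

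**Figure D2:**
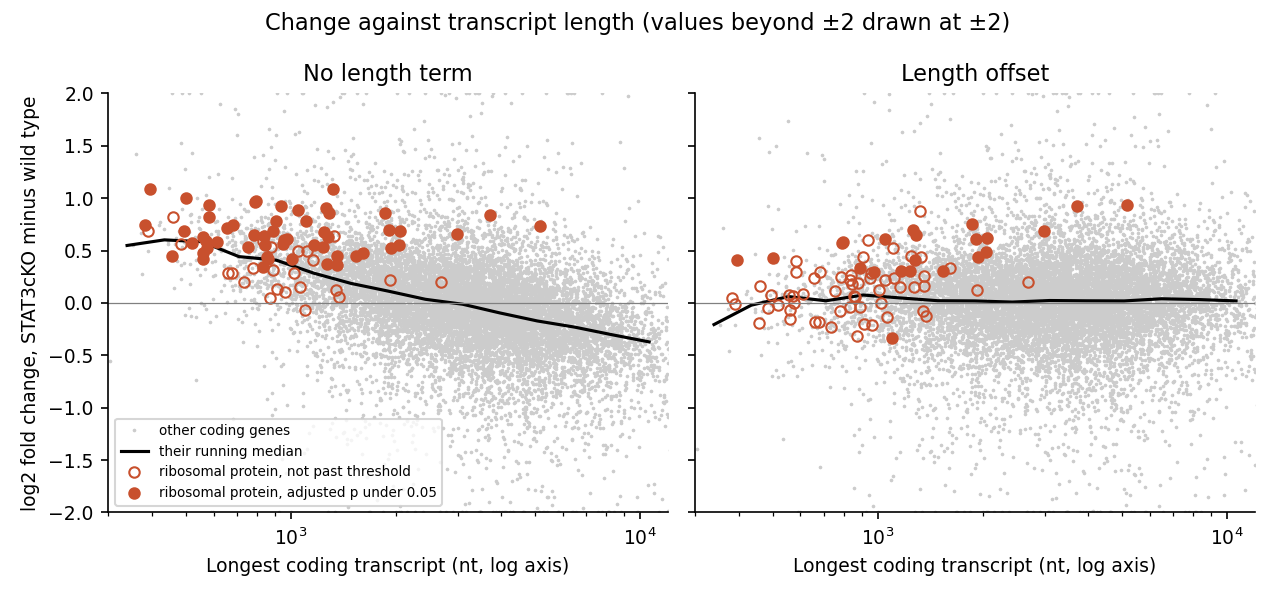
Log2 fold change of each gene against the length of its longest coding transcript (nt, log axis), without (left) and with (right) the length offset, with ribosomal protein genes as orange circles, filled where the adjusted p was under 0.05. On the left 54 circles are filled, and the members' medians stay between 0.46 and 0.67 in every length class where those of other coding genes (black line: running median) fall with length, and on the right 21 are filled and higher and 1, Rps2, is filled and lower.

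The members with the largest length-adjusted increases were of both subunits. Rps20, a small-subunit head protein (chr4:3831584-3835655, GRCm38), was at 96.9, 90.4 and 70.0 CPM across the wild-type hearts against 145, 149 and 167 CPM across the knockout hearts, with no overlap (length-adjusted log2 fold change 0.93 ± 0.11 SE, edgeR adjusted p = 0.000231). Rps15a was at 139, 109 and 96.7 CPM across the wild-type hearts against 196, 184 and 194 CPM across the knockout hearts (0.93 ± 0.13, edgeR adjusted p = 0.000687). Both values lean on a long annotated isoform, 3706 nt for Rps20 and 5179 nt for Rps15a, where the median annotated transcripts have 582 and 637 nt. With the median transcript length in the offset, Rps20 stood at 0.73 (edgeR adjusted p = 0.000796) and Rps15a at 0.64 (0.00227), and with the shortest principal transcript (640 nt) Rps15a stood at 0.37 (0.0208).

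Rpl21 of the large subunit stood at 34.5, 37.9 and 37.2 CPM across the wild-type hearts against 71.2, 57.5 and 69.8 CPM across the knockout hearts. The groups did not overlap, and it rose by 0.76 on the length-adjusted log2 scale (edgeR adjusted p = 0.000436). Rpl18 rose by 0.68 (0.00067), or by 0.31 with its principal transcript of 679 nt in place of 2989 nt (0.0294). Rpsa, the laminin receptor precursor that sits on the small subunit, was steady within wild type at 280, 277 and 276 CPM and reached 400, 387 and 415 CPM in STAT3cKO (0.44 ± 0.087 SE, edgeR adjusted p = 0.00437). Rps13 was also among the 6 largest values, at 1.13, 1.01 and 1.65 CPM across the wild-type hearts against 2.66, 3.44 and 2.03 CPM across the knockout hearts, and did not pass (0.88, edgeR adjusted p = 0.0813).

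Of the stalk and the most abundant members, Rplp1 (0.43, edgeR adjusted p = 0.0484), Rps21 (0.41, 0.0401), Rps4x (0.30, 0.0363) and Rpl4 (0.30, 0.0438) stayed past the threshold with the offset. These 4 calls sat close to it and each was lost when 1 heart was left out. Leaving out wild type replicate 3 or 4 or STAT3cKO replicate 3 or 91 ended each of the 4, with the highest adjusted p at 0.168 for Rplp1 and 0.159 for Rpl4, and wild type replicate 1 ended those of Rps4x and Rpl4 (0.117 and 0.0841) and STAT3cKO replicate 6 that of Rpl4 (0.101). Rplp0 (0.26, edgeR adjusted p = 0.0703), Rpl41 (0.30, 0.0585) and Rps14 (0.25, 0.0667) missed the threshold, and Rps15 (0.067, 0.66) was near the trend for its length.

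A single member was called lower with the offset. Rps2 passed in that direction (-0.34 ± 0.10 SE, edgeR adjusted p = 0.0384), but not with the shortest principal transcript (0.057), the median length (0.45), or on leaving out a wild-type heart (replicate 1 0.104, replicate 3 0.0726, replicate 4 0.114) or STAT3cKO replicate 6 (0.0638) or 91 (0.0984). The lowest estimates after it were Rpl6l (-0.31), Rpl27 (-0.23), Rplp2 (-0.21), Rpl7a (-0.20) and Rpl38 (-0.19), with edgeR adjusted p from 0.131 for Rpl7a to 0.615 for Rpl27. Rpl38, which had passed without the offset (0.45, edgeR adjusted p = 0.0233), is annotated with 457 nt, and that call was lost on leaving out wild type replicate 1 (0.0925), wild type replicate 4 (0.0834) or STAT3cKO replicate 3 (0.0705) or 91 (0.0642). With the shortest principal transcripts, Rplp2 (421 nt in place of 964) was the member called lower (-0.38, edgeR adjusted p = 0.0405). Its partner in the stalk, Rplp1, was called higher in the same fit (0.58, edgeR adjusted p = 0.022). The difference between these 2 genes was not tested.

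**Figure D3:**
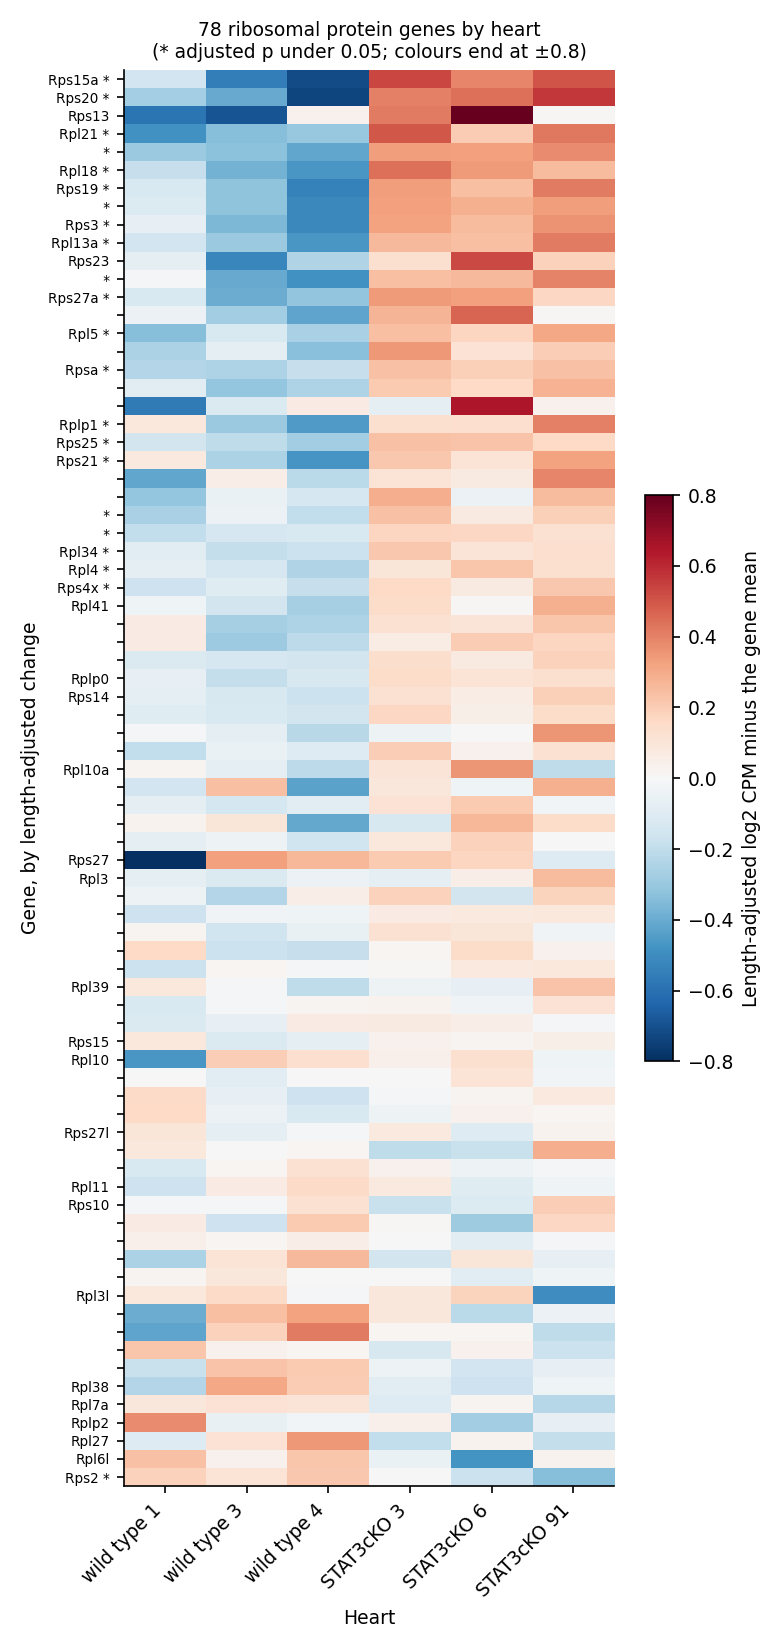
Length-adjusted log2 CPM of the 78 tested members in each heart (rows; genes described in the text are labelled), as the difference from the gene's mean over the 6 hearts, ordered by the length-adjusted change, with an asterisk at an adjusted p under 0.05. From Rps15a and Rps20 at the top the wild-type columns are blue and the STAT3cKO columns red, colours fade in the middle of the list, and Rps2 at the bottom has the opposite order.

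Which length is assigned to a gene changed the count of calls. The offset built on the longest coding transcript gave 21 members higher, the shortest principal transcript gave 26 and the median of all annotated transcripts gave 47, where 10.1%, 10.6% and 12.8% of all genes were called higher. Lower calls were 1, 1 and 0 members, where 7.02%, 7.49% and 9.63% of all genes were called lower. Under all of these definitions 18 members were called higher, a count given without its share over all genes. For 18 members the longest coding transcript was over 1.5 times the shortest principal one, and 8 of the 17 tested among them were called higher, against 13 of the 61 tested members whose lengths lay within 1.5 times (21.3%). A set of 10 members was called higher in each of the 15 length-offset fits run, which include the other length definitions, scalings, filters and each fit without 1 heart. The share of all genes called in every fit is not given, so this count has no background. Among these 10 members were Rpl13a, Rpl18, Rpl21, Rps15a, Rps19, Rps20, Rps3 and Rpsa. Rps19, a small-subunit protein whose human gene is mutated in Diamond-Blackfan anaemia, was at 69.5, 58.7 and 47.6 CPM across the wild-type hearts against 107, 96.9 and 115 CPM across the knockout hearts (length-adjusted 0.65, edgeR adjusted p = 0.00162). Rpl13a, known for a role in silencing inflammatory messages outside the ribosome, was at 221, 192 and 159 CPM and then 344, 327 and 388 CPM (0.61, edgeR adjusted p = 0.00187).

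Promoters of the members that passed both fits are shown where a word of a factor known at ribosomal protein promoters lies between 100 bases before and 20 bases after the RefSeq start in GRCm38.p6 (Rpl34 and Rps21 have 2 starts each, and the stretch is at the downstream one for Rpl34 and the upstream one for Rps21), 5′ to 3′ on the gene's strand. Capitals mark the ETS word CCGGAAG or the YY1 word AAGATGG on either strand. They are Rpl34 (chr3:130730318-130730437, minus strand), Rps15a (chr7:118116128-118116247, minus), Rps21 (chr2:180257279-180257398, plus) and Rps25 (chr9:44407614-44407733, plus).
Rpl34: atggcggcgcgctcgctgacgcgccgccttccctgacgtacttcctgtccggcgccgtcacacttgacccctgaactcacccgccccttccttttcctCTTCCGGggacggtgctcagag
Rps15a: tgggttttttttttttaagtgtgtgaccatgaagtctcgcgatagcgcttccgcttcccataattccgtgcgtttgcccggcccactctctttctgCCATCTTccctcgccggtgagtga
Rps21: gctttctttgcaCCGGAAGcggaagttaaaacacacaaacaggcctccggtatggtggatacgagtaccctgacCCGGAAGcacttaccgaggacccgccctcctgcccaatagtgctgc
Rps25: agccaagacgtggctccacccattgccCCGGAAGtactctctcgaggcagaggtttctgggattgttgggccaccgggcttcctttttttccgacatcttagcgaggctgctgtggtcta
Of the 83 members 61 matched the table of promoter windows (250 bases before to 50 after the start), with 73 windows. The ETS word was in 35.6% of these 73 windows and in 8.86% of all 32851 windows, and the YY1 word in 15.1% and 6.34%. The words TATAAA and CTTTTCC, searched likewise on both strands, were in 9.59% and 15.1% of member windows against 13.6% and 8.06% of all. The STAT word TTCNNNGAA, searched because STAT3 is the deleted factor, was in 3 member windows (4.11%), those of Rpl35, Rplp0 and Rpl4, and in 8.3% of all windows. Of the 21 members called higher in both fits 13 had a window, 4 of them with the ETS word, 3 with the YY1 word and 1 with the STAT word. A word match is a description of letters and shows neither binding nor its absence. Rpl34 and Rps25 passed with the longest coding transcript (edgeR adjusted p = 0.0236 and 0.00632) and not with the shortest principal one (0.552 and 0.0783).

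Paralogs were compared next. Rpl3l, the striated muscle form of the large-subunit protein RPL3 (chr17:24727826-24736143), was at 171, 176 and 149 CPM across the wild-type hearts against 190, 197 and 130 CPM across the knockout hearts. The groups overlapped, and neither fit called it (0.059, edgeR adjusted p = 0.794, and -0.12, 0.628, with the offset). Rpl3, the general form (chr15:80077781-80083406), was at 77.0, 73.0 and 72.6 CPM across the wild-type hearts against 85.5, 90.5 and 110 CPM across the knockout hearts, all above wild type (0.36, edgeR adjusted p = 0.0208, and 0.16, 0.26, with the offset). The call without the offset was lost on leaving out wild type replicate 3 (0.0734), wild type replicate 4 (0.0707) or STAT3cKO replicate 91 (0.0761). Per kilobase, Rpl3l exceeded Rpl3 by 2.19, 2.36 and 2.02 times in the wild-type hearts and by 2.19, 2.14 and 1.16 times in STAT3cKO replicates 3, 6 and 91. These ratios leave out pseudogene rows. Rpl3 had 8694 counts over 6 hearts and its 2 pseudogene rows, found by symbol alone, 4236, while Rpl3l has 0 rows found that way. If those rows hold reads of Rpl3, the ratios are too high. The mean log2 ratio was 1.13 ± 0.11 in wild-type hearts against 0.81 ± 0.52 in the knockout (SD, n = 3 each; two-sided exact permutation p = 0.4, smallest possible 0.1). The difference of -0.31 became -0.014 without STAT3cKO replicate 91. That heart also had the highest Myh7, the fetal myosin heavy chain, at 3424 CPM against 364 and 581 in the other STAT3cKO hearts and 87.1 to 108 in wild type, and the highest Nppa, at 721 CPM against 49.6 to 129 in the other 5 hearts. The relation of these values to the Rpl3l ratio was not tested.

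The promoter stretch of Rpl3l, from 100 bases before to 20 after the upstream RefSeq start (chr17:24727726-24727845, plus strand), is also shown, and it held none of the ETS, YY1 or STAT words in this window. The stretches above were chosen for holding a word, so this is no contrast with them. Only 35.6% of member windows held the ETS word and 15.1% the YY1 word.
Rpl3l: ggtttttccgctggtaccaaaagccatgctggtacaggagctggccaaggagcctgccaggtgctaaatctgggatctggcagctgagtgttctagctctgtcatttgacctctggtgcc
The 3 tested genes whose log2 CPM was most like that of Rpl3l over the 6 hearts were Tmod4 (Pearson r = 0.977), Pald1 (0.976) and Tmc7 (0.969). All 3 were lowest in STAT3cKO replicate 91, as Rpl3l was, with Tmod4 at 15.5 CPM there against 17.6 to 21.6 CPM in the other hearts. They were picked from all genes tested for their likeness to Rpl3l over 6 hearts. A shared low value in that heart is therefore part of the choice and no separate result.

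**Figure D4:**
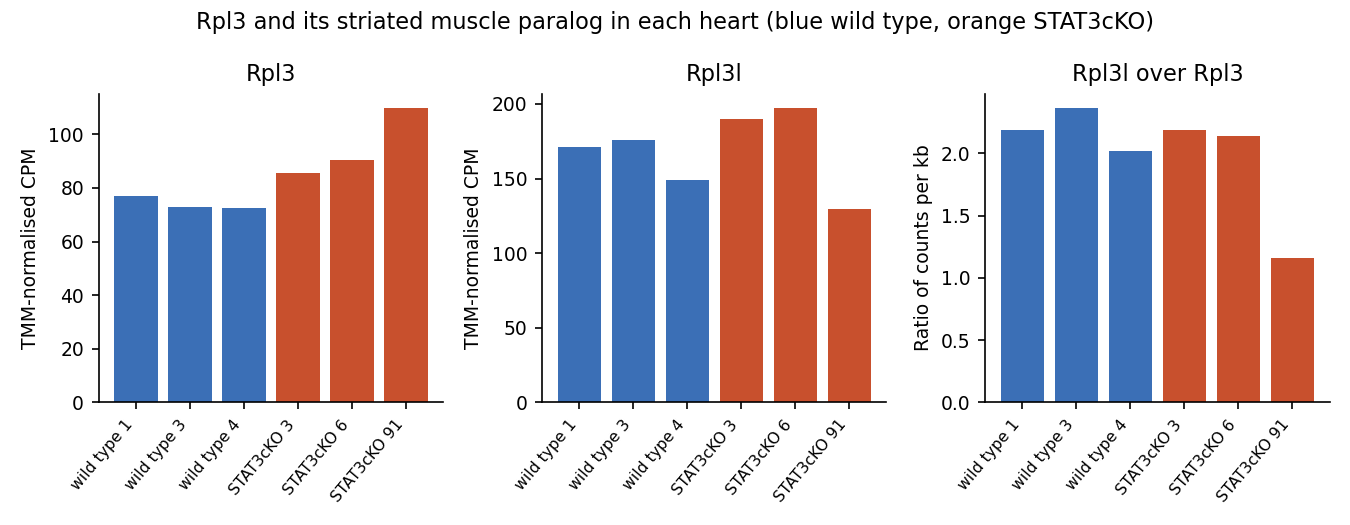
TMM-normalised CPM of Rpl3 (left) and Rpl3l (middle), and the ratio of Rpl3l to Rpl3 counts per kilobase (right), in each heart (blue bars wild type, orange bars STAT3cKO). The ratio, with the pseudogene rows of Rpl3 left out, lies between 2.02 and 2.36 in 5 hearts and at 1.16 in STAT3cKO replicate 91.

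The other paralog pairs held fewer reads. Rps27l was at 44.3, 35.4 and 33.1 CPM across the wild-type hearts against 58.2, 48.9 and 55.7 CPM across the knockout hearts (0.53, edgeR adjusted p = 0.00715), and at -0.00037 with the offset (0.998). The row of Rps27 itself held 0.824 to 1.79 CPM in wild type and 2.08 to 2.66 in STAT3cKO and did not pass (0.82, edgeR adjusted p = 0.0839). Rpl39 rose without the offset (0.58, edgeR adjusted p = 0.0144) and stood at 0.084 with it (0.626). Scaling by library size alone ended the call of Rpl39 without the offset (0.0855), and likewise those of Rpl3 (0.142), Rpl10 (0.0624), Rpl11 (0.125) and Rpl38 (0.098). Its paralog Rpl39l, best known from testis, had 0, 1 and 3 counts across the wild-type hearts against 1, 15 and 1 across the knockout hearts, too few to test. Rpl10 rose without the offset (0.44, edgeR adjusted p = 0.025), a call lost on leaving out wild type replicate 1 (0.0677), wild type replicate 4 (0.0645) or STAT3cKO replicate 3 (0.0731) or 6 (0.0612), and it stood at 0.063 with the offset (0.815). Its testis paralog Rpl10l had 0 counts in every heart, which allows up to 3 counts per library, or 0.154 to 0.204 CPM, and covers counting error only. The remaining untested members were Rps28, with 13 counts over 6 hearts, Rps4l, with 24, and Rpl32l, with 2. GENCODE lists Rpl32l and Rpl6l as processed pseudogenes, although their symbols satisfy the rule.

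The 5S particle of the large subunit binds MDM2 and so links ribosome assembly to p53. Of its proteins, Rpl5 was at 10.2, 11.9 and 10.3 CPM across the wild-type hearts against 15.6, 14.9 and 17.0 CPM across the knockout hearts and rose in both fits (0.56, edgeR adjusted p = 0.00715, and 0.49, 0.0168, with the offset). The length-adjusted call was lost on leaving out wild type replicate 1 (0.0738), wild type replicate 4 (0.0554) or STAT3cKO replicate 91 (0.052). Rpl11 was at 41.0, 45.2 and 44.2 CPM and then 59.5, 50.4 and 55.5 CPM, with no overlap before adjustment (0.34, edgeR adjusted p = 0.0199) and -0.040 after it (0.822). Its call without the offset was lost on leaving out wild type replicate 1 (0.0742), wild type replicate 4 (0.0539) or STAT3cKO replicate 3 (0.0851). Rps27a, made as a fusion with ubiquitin, stood at 3.71 ± 0.627 CPM in wild-type hearts against 7.23 ± 0.428 CPM in the knockout (SD, n = 3 each; 0.96, edgeR adjusted p = 0.00377). With the offset it was at 0.57 and passed narrowly (0.0491), and no fit that left out 1 heart kept that call (0.0658 to 0.14).

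The level of a member depends on what its row counts. Per kilobase of longest coding transcript, the tested members ran from 0.96 CPM (Rps13) to 629 CPM (Rplp1) in wild type, with a median of 60.3, and 20 of the 78 were under 10. The table also lists 299 rows named after 62 of the members with the ending -ps, for pseudogene. For 14 members these rows held more counts than the gene. Rps23 had 222 counts over 6 hearts and its 2 -ps rows 9604, Rps13 had 198 and its 4 rows 5205, Rpl10a had 135 and its 3 rows 6225, and Rps10 had 625 and its 3 rows 8120. No source used here says how reads that match a gene and its copies equally well were assigned, so the level of such members is uncertain. The -ps rows held 11.1 ± 0.423% as many counts as the members in wild-type hearts against 10.9 ± 0.191% in those of the knockout (SD, n = 3 per group), which is less apart than the wild-type SD. Copies listed under any other symbol were not looked for, so these shares do not measure all reads at pseudogenes.

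**Figure D5:**
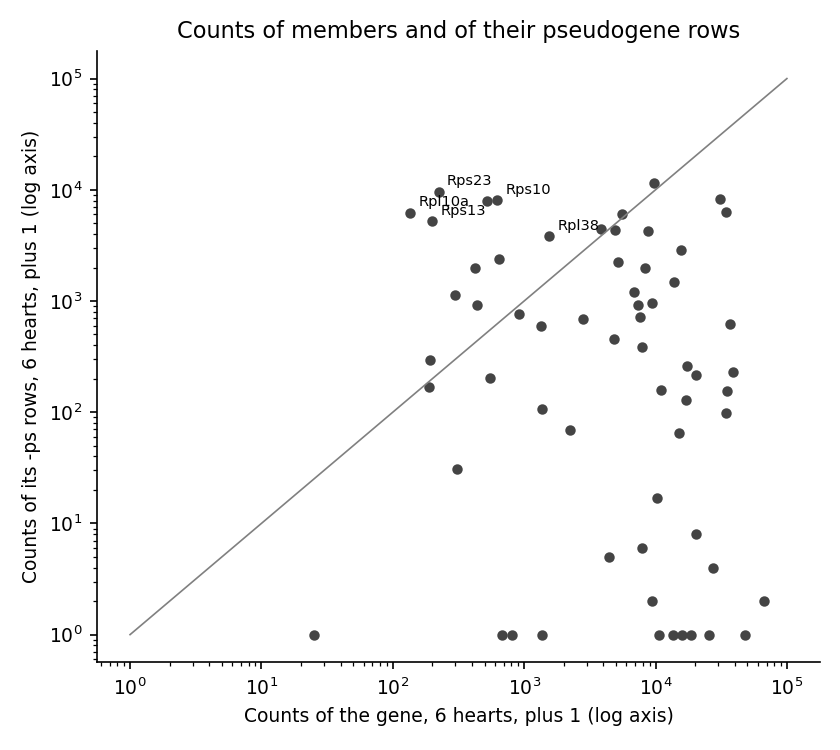
Counts over 6 hearts of each member that has -ps rows (horizontal) against the counts of those rows (vertical), plus 1, on log axes, with a line of equality. For 14 members the point lies above the line, among them Rps23 with 222 counts of its own and 9604 in its -ps rows.

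When the -ps rows were added to their members, an alternative chosen after seeing the data, 61 of 78 members were higher without the offset in place of 54 and 25 with it in place of 21. Of 14410 genes tested with the copies added, 1894 were higher without the offset and 1458 with it. Among the 14 members with more counts in the -ps rows, 7 were higher without the offset and 0 with it as deposited, and 11 and 3 with the copies added. As deposited, 13.2% and 10.1% of all genes were higher. The move from 0 to 3 was not tested, and both are small counts beside a share of 10.1%. Single values moved: Rps13 went from a length-adjusted log2 fold change of 0.88 to 0.019 (edgeR adjusted p = 0.91), and Rps27 from 0.16 to 0.62 (0.092), while without the offset Rps27 passed with its copies (1.27, edgeR adjusted p = 0.00263). Rpl21, with 15 -ps rows, and Rpsa, with 12, kept their length-adjusted calls with the copies added (edgeR adjusted p = 0.000873 and 0.00375). Exons of 37 members also share bases with another annotated gene, as for Rps2 (Snhg9, Snora64), Rps3 (Snord15b), Rpl13a (Snord33) and Rpl18 (Sphk2), and without a stated strand setting those reads cannot be separated.

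Ribosomal proteins whose symbols fall outside the rule were compared in the same fits. Of 7 tested, 6 were higher without the offset and 1 with it, where 13.2% and 10.1% of all genes were. Rpl36al, a copy of Rpl36a, was at 43.6, 37.6 and 39.5 CPM across the wild-type hearts against 69.5, 61.8 and 71.9 CPM across the knockout hearts (length-adjusted 0.54, edgeR adjusted p = 0.00194). Rps3a1 rose without the offset (0.55, edgeR adjusted p = 0.00108) and missed the threshold with it (0.24, 0.0708). Rack1, a signalling scaffold on the small subunit, rose without it (0.33, 0.0227) and stood at 0.16 with it (0.22).

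Genes that build or serve the ribosome were compared in the same way. Over all genes, 13.2% were higher and 12.6% lower without the offset, and 10.1% and 7.02% with it. Of 44 ribosome assembly genes 15 (34.1%) were higher and 1 lower without the offset, and 9 (20.5%) and 0 with it (median 0.22). Nop10, a short protein of the box H/ACA particles, rose in both fits (1.05, edgeR adjusted p = 0.000292, and 0.79, 0.000671), as did Ncl, the nucleolar protein nucleolin (0.30, 0.0431, and 0.64, 0.00102), and Nop58 of the box C/D particles (0.36, 0.0415, and 0.74, 0.00134). The offset raised the estimates of Ncl and Nop58, whose longest coding transcripts have 8202 and 9507 nt. Of 42 translation factors 10 (23.8%) were higher and 2 lower without the offset, and 9 (21.4%) and 2 with it (median 0.10). Naca, a chaperone of nascent chains, passed with the offset (0.55, edgeR adjusted p = 0.00274) and not without it (0.27, 0.0863), as did Eif5b (0.43, 0.00772, and 0.10, 0.446). Their longest coding transcripts have 6745 and 7797 nt, so both calls lean on the length assigned. The initiation factor subunit Eif3e passed in both fits (0.40, 0.00825, with the offset, and 0.57, 0.00112, without it).

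Of 19 genes of RNA polymerase I and its factors, some shared with other polymerases, 8 were higher (42.1%, against 13.2% of all genes) and 1 lower without the offset. With it, 3 were higher (15.8%, against 10.1%) and 0 lower. The polymerase I subunit Polr1e rose from 15.7 ± 2.22 to 26.1 ± 5.99 CPM (SD, n = 3 each; length-adjusted 0.75, edgeR adjusted p = 0.00906), and the shared subunit Polr2e (0.41, 0.012) and the ribosomal DNA factor Ubtf (0.37, 0.0316) passed with it. Ubtf, with 4692 nt, did not pass without the offset (0.20, edgeR adjusted p = 0.174). Of 22 genes of mTORC1 signalling, Myc and factors at ribosomal protein promoters, 2 were higher (9.09%, against 13.2% of all genes) and 3 lower without the offset, and 1 (4.55%, against 10.1%) and 0 with it. These small counts were not tested against the shares of all genes, and the list is long in transcript (median 4788.5 nt). The gene called with it was Rps6kb1, the S6 kinase (0.28, edgeR adjusted p = 0.0486). Rps6kb1 has a longest coding transcript of 5531 nt and stood at 0.064 without the offset (edgeR adjusted p = 0.653). Eif4ebp1, the translation repressor that mTORC1 inactivates, and Rheb, which activates mTORC1, passed without the offset (0.36, 0.015, and 0.34, 0.0119) and not with it (0.28, 0.0618, and 0.23, 0.0707).

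Other families of short messages gave a setting for these values. Without the offset 13.2% of all genes were called higher and 12.6% lower. Of 76 mitochondrial ribosomal protein genes (median length 1327.5 nt) 37 were higher and 1 lower without the offset, and 14 and 3 with it, with a median of 0.086. Of 37 proteasome subunit genes (1581 nt) 22 were higher without the offset and 15 with it, with 0 lower and a median of 0.22. With the offset the share called higher was thus 26.9% for the cytosolic ribosomal proteins, 18.4% for the mitochondrial ones and 40.5% for the proteasome, beside 10.1% of all genes. These shares were not tested against each other.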

How the data were processed

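The authors deposited 1 table of raw read counts per gene symbol, a column per heart. Per the submitters' processing notes HISAT2 and GRCm38 were used. No source used here gives the counting program, its annotation, the strand setting or the handling of multiply mapping reads. Genes were kept by filterByExpr (minimum count 10), scaled by TMM and compared with edgeR 4.0.16 (robust quasi-likelihood test, R 4.3.3), with Benjamini-Hochberg adjustment over 14484 genes and a threshold of 0.05. SE is the log2 fold change over the square root of F. Lengths came from GENCODE M21 (93.8% of genes tested), positions and promoters from RefSeq GRCm38.p6. The length offset is a natural spline (5 degrees of freedom) of each heart's deviation in log2 CPM on log2 length, fitted to coding non-members. Genes without a length received the heart's median deviation over genes without a length. Scripts were tested on simulated data. The named members were the 10 highest per kilobase, the 6 largest increases and 6 largest decreases with the offset, those opposite to the majority, the stalk, Rpsa, paralogs, Rps27a, Rpl5 and Rpl11, and up to 3 genes per other list. Any other gene was chosen after its values were seen. Members and lists were chosen with earlier results of these data known. Alternatives covered scaling, filtering, DESeq2 1.42.0, limma-voom (limma 3.58.1), length definition, GC content, pseudogene rows and leaving out each heart. Depth per heart is given with the results. A few members covered by the naming rule are not reported here by name.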

Additional observations from a re-analysis of the deposited data

How the results depend on the processing

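Without the offset 44 to 61 members were higher and 0 lower in every alternative run, 45 to 52 when 1 heart was left out. With it, 17 to 47 were higher, 12 to 22 when 1 heart was left out, 12 without wild type replicate 4 and 13 without STAT3cKO replicate 3. The median transcript length gave 47 higher, 0 lower and a median of 0.46, and the stricter filter (at least 1 CPM in 3 hearts and a mean count of 50) a median of 0.19. The members' median ran from 0.21 to 0.25, and the lower calls from 0 to 1, when 1 heart was left out. Library size alone moved the median of all genes from -0.0016 to -0.11 and that of the members from 0.56 to 0.45, with 1109 genes higher and 2714 lower, and as a percent of all counts the summed level stood 0.45 higher on the log2 scale in place of 0.56. When 1 heart was left out, the calls over all genes were 1237 to 1887 higher and 1198 to 1999 lower without the offset, and 845 to 1503 and 586 to 1125 with it.

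Signs of uncalled members turned. Library size alone gave Rpl6l -0.060, Rplp2 -0.011 and Rpl3l -0.066 without the offset. Leaving out 1 heart gave, without the offset, -0.16 to 0.0052 for Rps2, -0.069 to 0.20 for Rpl6l, -0.0060 to 0.30 for Rplp2 and -0.050 to 0.24 for Rpl3l. With it, the ranges were -0.26 to 0.057 for Rpl3l, -0.013 to 0.16 for Rpl39, -0.12 to 0.18 for Rpl10, -0.15 to 0.40 for Rps27, -0.040 to 0.068 for Rps27l and -0.13 to 0.024 for Rpl11. The median transcript length gave Rpl27 0.079, Rpl7a 0.072, Rpl38 0.26, Rpl3l 0.017, Rps27l 0.39 (edgeR adjusted p = 0.0233) and Rpl11 0.24, the shortest principal transcript Rps27l 0.091 and Rpl11 0.046, and a trend fitted to all genes with a length Rps27l 0.045. The log2 ratio of Rpl3l to Rpl3 differed by -0.47 to -0.014 between the groups when 1 heart was left out. The causes were not tested. No paired analysis was possible because the groups share 1 replicate number and the labels do not say that it pairs hearts. The shortest principal transcript and the added pseudogene rows were chosen after seeing the data.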
